A study of Mus musculus with 8 samples.

Results

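Fibroblast growth factors (FGFs) and their receptors were followed in gastrocnemius muscle of mice with and without the histone demethylase LSD1. The set held 10 genes, chosen by their symbols from the 27041 rows of the count table, and all 10 had a row. It comprised 6 FGF genes (*Fgf1*, *Fgf2*, *Fgf6*, *Fgf7*, *Fgf9* and *Fgf11*) and 4 receptor genes (*Fgfr1*, *Fgfr2*, *Fgfr3* and *Fgfr4*). *Fgf1* and *Fgf11* are among the genes that the study named as higher without LSD1 in these mice, so their direction here is not independent evidence.

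RNA-seq counts were read for 4 Ctrl and 2 LSD1skm-/- muscles of male mice aged 9 weeks on a C57BL/6J background. LSD1skm-/- mice carry floxed alleles of the first exon of *Kdm1a*, the gene of LSD1, and the HSA-Cre transgene, whose human skeletal actin promoter drives the recombinase in myofibers. Other cells of the muscle therefore keep LSD1, and Ctrl mice carry the floxed alleles without the transgene. LSD1skm-/- replicates 3 and 4, which the labels also describe, were not analysed here. The labels give the tissue as skeletal muscle, and gastrocnemius is named by the study.

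FGFs that are secreted bind heparan sulfate on cell surfaces and activate receptor tyrosine kinases, which pass the signal through Frs2, Ras and the Erk kinases. In skeletal muscle this pathway is known for its part in the proliferation of myoblasts and satellite cells, the resident stem cells of the tissue. *Fgf11* is different in kind, since it encodes an FGF homologous factor that stays inside the cell and is not a ligand of the 4 receptors.

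Values are CPM, the counts scaled to library size with edgeR's TMM factors, and library totals ran from 30654828 to 41278769 counts. The targeted gene was checked first. *Kdm1a* stood at 22.95, 21.96, 28.06 and 3.66 CPM in Ctrl replicates 1 to 4, and at 2.96 and 3.48 CPM in the LSD1skm-/- replicates. The library labelled Ctrl replicate 4 goes against its label, with a *Kdm1a* level near those of the LSD1skm-/- libraries. It was left in its labelled group, and the differences of the tested members are given with that library and without it. The log2 difference of *Kdm1a* was -2.56 (SE 0.74, adjusted p = 0.557 in edgeR's quasi-likelihood test) with it, and -2.91 (SE 0.17, adjusted p = 0.000579) without it. Myofiber markers summed to between 152300 and 185100 CPM, and all 12 on the list were detected in this tissue. Of these 12 markers 3 met the limits the study set, an unadjusted p under 0.05 and a fold above 1.3 or below 0.77, with a lower level without LSD1 in both comparisons. These 3 were 25.0% of the list, beside 6.31% of all genes tested with the libraries as labelled and 15.2% without the library labelled Ctrl replicate 4. Among them was *Myh7*, the myosin of slow fibers, at 247, 242, 510 and 222 CPM in the Ctrl libraries and 35.3 and 86.5 CPM in LSD1skm-/- muscle (log2 difference -2.32, adjusted p = 0.557 in edgeR's quasi-likelihood test, and -2.45, adjusted p = 0.0313, without the library labelled Ctrl replicate 4). The others were *Tnnt1* (-1.52, and -1.60 without that library) and *Myh4*, a myosin of fast fibers (-0.42, and -0.52). Adipocyte markers, of which 7 were tested, were all lower, with a median log2 difference of -3.54 (-3.25 without that library), and 6 of them met those limits. That was 85.7% of the tested adipocyte markers in both comparisons, beside the same 6.31% and 15.2% of all genes. The part of fiber type and adipocytes in the levels of the FGF genes was not tested.

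No member of the set passed the test with the libraries as labelled. Groups were compared by the quasi-likelihood test of edgeR, with p-values adjusted by Benjamini and Hochberg's method over the 11364 genes with a mean count above 50, and 8 of the 10 members reached that count. Of these 8 members, 6 had a higher and 2 a lower level without LSD1, and the median log2 difference was 0.23, beside -0.01 over all genes tested. None had an adjusted p under 0.05, and none an unadjusted p under 0.05, beside 0.0% and 8.9% of all genes tested. By the study's limits on p and fold, 0 of the 8 members were called, beside 6.31% of all genes. DESeq2 also called 0 of the 8 members by these limits, beside 7.36% of all genes.

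Without the library labelled Ctrl replicate 4, 2 of the 8 members met the study's limits, *Fgf11* and *Fgfr4*, both in the direction of a higher level in LSD1skm-/- muscle. The share over all genes was then 15.2%, and 10.1% of all genes met the limits with a higher level. No member had an adjusted p under 0.05 in edgeR's quasi-likelihood test, beside 5.39% of all genes, and 2 had an unadjusted p under 0.05, beside 20.2%. DESeq2 without that library gave 1 member an adjusted p under 0.05, *Fgf11*, beside 9.29% of all genes. Leaving out Ctrl replicate 2 or Ctrl replicate 3 in its place brought 1 member within the study's limits in each case, *Fgfr3* (log2 difference -0.58) and *Fgf2* (0.57), beside 5.07% and 5.02% of all genes.

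The groups did not overlap for 3 of the 8 tested members with the libraries as labelled, *Fgf11* above and *Fgf7* and *Fgfr3* below, beside 17.8% of all genes tested (9.8% above and 8.02% below). Against Ctrl replicates 1 to 3 they did not overlap for 5 of the 8, with *Fgf6* and *Fgfr4* added above, beside 37.7% (20.3% above and 17.3% below). With 4 against 2 libraries an exact permutation test of a single gene cannot go below p = 0.067.

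**Figure D1:**
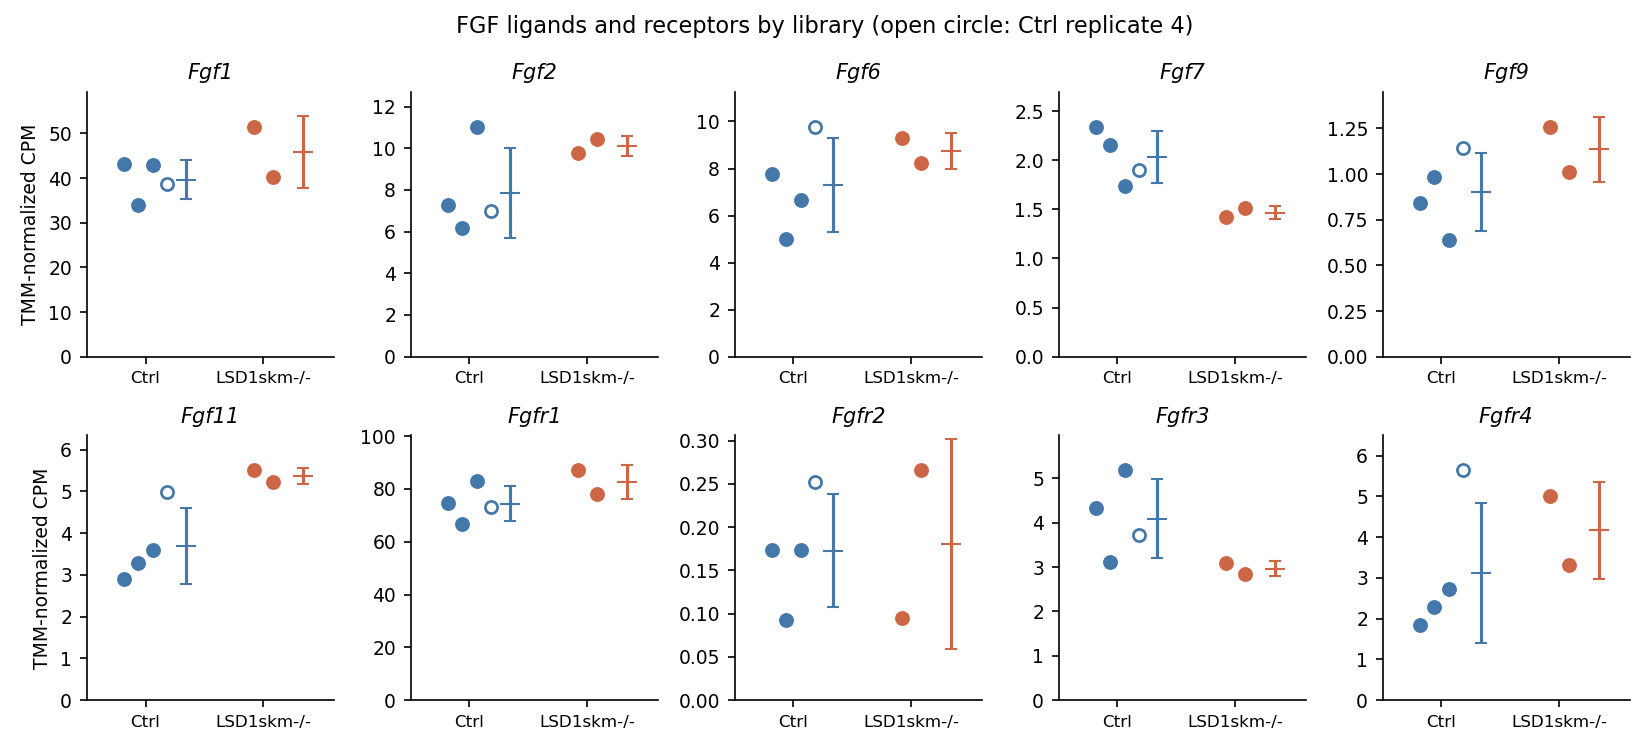
TMM-normalized CPM of the 10 FGF genes in each library, with the mean and SD of each group drawn beside the points and the library labelled Ctrl replicate 4 as an open circle. *Fgf11* in both LSD1skm-/- libraries lies above all Ctrl libraries, *Fgf7* and *Fgfr3* lie below them, and the open circle of *Fgf6*, *Fgf11* and *Fgfr4* stands above the other Ctrl libraries.

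*Fgf11* had the largest difference among the tested members with the libraries as labelled, and its promoter is shown for that reason. The gene lies on the minus strand of chromosome 11 at chr11:69796068-69801857 (GRCm38, GENCODE vM21), and its longest coding transcript has 5 exons and encodes 225 residues. The 250 bases before the RefSeq start on GRCm38.p6, chr11:69802281-69802530 on the minus strand, are printed with motif matches in capitals. This start lies upstream of the GENCODE coordinates of the gene, and positions below are counted from the RefSeq start of each gene. For comparison, the same stretch is printed for *Fgfbp1*, which encodes a secreted carrier of FGFs and had the largest difference among the pathway genes described further on. That stretch is chr5:43981800-43982049, also on the minus strand.
Fgf11: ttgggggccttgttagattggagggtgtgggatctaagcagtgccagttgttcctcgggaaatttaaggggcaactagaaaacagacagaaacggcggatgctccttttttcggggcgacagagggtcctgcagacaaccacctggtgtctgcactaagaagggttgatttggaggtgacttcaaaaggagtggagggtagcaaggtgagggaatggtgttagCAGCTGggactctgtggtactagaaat
Fgfbp1: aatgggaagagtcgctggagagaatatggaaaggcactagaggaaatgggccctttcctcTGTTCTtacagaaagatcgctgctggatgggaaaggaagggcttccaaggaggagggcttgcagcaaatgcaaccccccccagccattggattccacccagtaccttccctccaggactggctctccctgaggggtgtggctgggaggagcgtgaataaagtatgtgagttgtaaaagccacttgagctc

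Both strands of these stretches were searched for GCGCATG, a half-site of the factor NRF1, for TGTTCT, a half-site of the glucocorticoid receptor, and for the E-box CAGCTG, a motif of the myogenic factors. No 2 of these motifs overlapped in the printed stretches. Of 32851 RefSeq promoter stretches of the same length, 3.24%, 16.1% and 13.0% held them. *Fgf11* held 1 E-box, at -27 from the start, and *Fgfbp1* held 1 glucocorticoid receptor half-site, at -190. Of the 8 members with a promoter in the RefSeq table, *Fgf9* held 1 NRF1 half-site at -99 and *Fgfr3* held 1 E-box at -97 from the first of its 2 starts, and the other 5 held no match. A match is a string of letters and says nothing about binding.

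Among the 6 FGF genes of the set, *Fgf1* was the most abundant per length of exon in every library. *Fgf1*, on the minus strand of chromosome 18 at chr18:38838673-38929472, encodes acidic FGF, which binds every FGF receptor and has no signal peptide. Normalized reads per kilobase of exon (RPKM) of *Fgf1* ranged from 6.22 to 9.44 over the 6 libraries. This was 55.8% to 63.2% of the summed level of the 6 FGF genes.

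*Fgf1* stood at 43.06, 34.01, 42.99 and 38.57 CPM in Ctrl replicates 1 to 4, and at 51.5 and 40.1 CPM in LSD1skm-/- replicates 1 and 2. LSD1skm-/- replicate 1 was the highest library and LSD1skm-/- replicate 2 lay among the controls, so the groups overlapped. Ctrl muscles averaged 39.6 ± 4.31 CPM (SD, n = 4), and LSD1skm-/- muscles 45.8 ± 8.06 CPM (SD, n = 2). The log2 difference was 0.21 (SE 0.14, 95% interval -0.13 to 0.55, adjusted p = 0.653 in edgeR's quasi-likelihood test). It was 0.20 without the library labelled Ctrl replicate 4 (adjusted p = 0.535), 0.01 when LSD1skm-/- replicate 1 was left out, and 0.38 when LSD1skm-/- replicate 2 was. The size of the *Fgf1* difference thus rested on LSD1skm-/- replicate 1.

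*Fgf2*, at chr3:37348346-37410108, encodes basic FGF, a mitogen of myoblasts that also lacks a signal peptide. It stood at 7.263, 6.192, 11.04 and 6.996 CPM in Ctrl replicates 1 to 4, and at 9.77 and 10.4 CPM in the LSD1skm-/- replicates. Ctrl replicate 3 was the highest library of all, and the other Ctrl libraries lay below both LSD1skm-/- libraries. The log2 difference was 0.36 (SE 0.23, 95% interval -0.17 to 0.89, adjusted p = 0.632 in edgeR's quasi-likelihood test) and 0.31 without the library labelled Ctrl replicate 4. Without Ctrl replicate 3 it was 0.57, still with an adjusted p of 0.791. Exons of *Fgf2* overlap those of *Nudt6* on the opposite strand over 9.44% of their length, and the strand setting of the counting is not stated. *Nudt6* differed by -0.10 on the log2 scale (SE 0.15), in the opposite direction.

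*Fgf6*, at chr6:127015586-127028187, encodes a secreted FGF whose expression is largely restricted to skeletal muscle. It stood at 7.75, 5.02, 6.67 and 9.79 CPM in Ctrl replicates 1 to 4, and at 9.29 and 8.22 CPM in the LSD1skm-/- replicates. The library labelled Ctrl replicate 4 was the highest of the 6, and both LSD1skm-/- libraries lay above the other 3 Ctrl libraries. The log2 difference of *Fgf6* was 0.26 (SE 0.25, adjusted p = 0.738 in edgeR's quasi-likelihood test) with all libraries, and 0.43 (SE 0.19, 95% interval -0.02 to 0.89, adjusted p = 0.271) without that library.

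*Fgf7*, at chr2:126034658-126091185, encodes keratinocyte growth factor, which connective tissue cells secrete. It was at 2.34, 2.16, 1.74 and 1.90 CPM in Ctrl replicates 1 to 4, and at 1.42 and 1.51 CPM in LSD1skm-/- muscle. Both LSD1skm-/- libraries lay below all Ctrl libraries, including the library labelled Ctrl replicate 4. The log2 difference of *Fgf7* was -0.47 (SE 0.23, 95% interval -1.0024 to 0.064, adjusted p = 0.565 in edgeR's quasi-likelihood test), and -0.50 without that library (adjusted p = 0.267). Its mean count was 66.0, at which counting error alone is 12.3% of a value in a typical library.

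All 10 markers of fibroblasts and fibro-adipogenic cells were detected, and the part of these cells in the level of *Fgf7* was not tested. With the libraries as labelled 9 were higher and 1 lower. By edgeR's quasi-likelihood test 6 had an unadjusted p under 0.05 (60.0%, beside 8.9% of all genes tested) and 0 an adjusted p under 0.05. *Gsn* had the highest level of the list, at 499.6 to 749.9 CPM over the 6 libraries, and weighs most in the sum. Their summed level was 993.6 to 1138 CPM in Ctrl replicates 1 to 3, 1255 CPM in the library labelled Ctrl replicate 4, and 1295 to 1519 CPM in LSD1skm-/- muscle. In whole muscle, fewer cells of a type and less RNA per cell cannot be told apart, for *Fgf7* and for every gene below.

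*Fgf9*, at chr14:58070547-58112720, encodes a secreted FGF, and its mean count of 35.2 kept it out of the test. It had 29, 32, 22 and 50 counts in Ctrl replicates 1 to 4, and 40 and 38 counts in the LSD1skm-/- libraries. When genes with a mean count above 10 were fitted, the log2 difference of *Fgf9* was 0.33 (SE 0.31, adjusted p = 0.754 in edgeR's quasi-likelihood test), and 0.46 (adjusted p = 0.479) without the library labelled Ctrl replicate 4.

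*Fgf11* counted 100, 107, 124 and 218 reads in Ctrl replicates 1 to 4, and 175 and 197 in the LSD1skm-/- replicates. In CPM these were 2.89, 3.30, 3.59 and 4.98, against 5.51 and 5.24. Counting error alone is 8.07% of a value at the mean count of 153.5. Both LSD1skm-/- libraries lay above all Ctrl libraries, and the library labelled Ctrl replicate 4 stood nearer to them than to the other controls. *Fgf11* thereby ordered the libraries much as *Kdm1a* did, in the opposite direction.

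*Fgf11* averaged 3.69 ± 0.908 CPM over the 4 Ctrl muscles (SD), 3.26 ± 0.352 CPM over the first 3 of them (SD) and 5.38 ± 0.196 CPM over the 2 LSD1skm-/- muscles (SD). The log2 difference was 0.54 (SE 0.23, 95% interval -0.0015 to 1.08), a fold of 1.45, with an unadjusted p of 0.0505 and an adjusted p of 0.557 in edgeR's quasi-likelihood test. Without the library labelled Ctrl replicate 4 it was 0.72 (SE 0.17, 95% interval 0.33 to 1.12), a fold of 1.65, with an adjusted p of 0.0558. DESeq2 without that library gave 0.71 with an adjusted p of 0.0247. The adjusted p of *Fgf11* over all alternatives ranged from 0.0247 to 0.947.

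**Figure D2:**
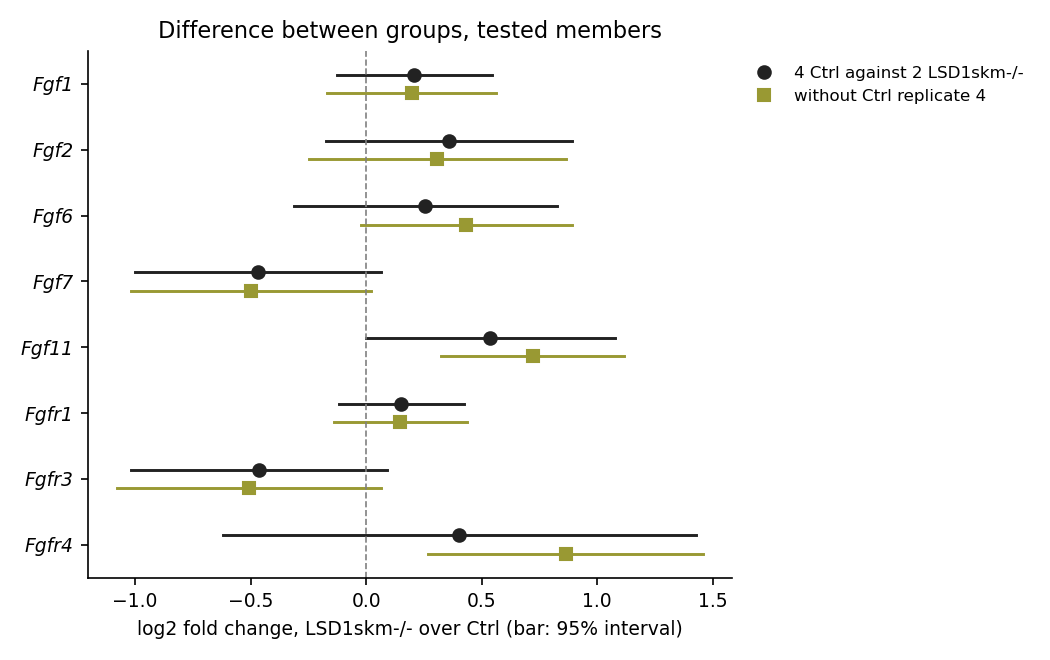
Log2 fold change of LSD1skm-/- over Ctrl for the 8 tested members, as points with 95% intervals, with all 4 Ctrl libraries (black circles) and without the library labelled Ctrl replicate 4 (green squares). With 4 Ctrl libraries every interval spans 0, and without that library those of *Fgf11* (0.33 to 1.12) and *Fgfr4* (0.27 to 1.46) do not.

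Satellite cell markers were measured beside *Fgf6*, *Fgf11* and *Fgfr4*, the 3 tested members for which the library labelled Ctrl replicate 4 stood above the range of Ctrl replicates 1 to 3. Over all genes tested, 66.9% lay outside that range in this library (34.5% above it and 32.4% below it). All 10 satellite cell markers were detected, and their summed level was 138.5 to 156.1 CPM in Ctrl replicates 1 to 3, 178.5 CPM in that library, and 182.2 to 186.7 CPM in LSD1skm-/- muscle. *Itga7*, which myofibers also express, had the highest level of the list. *Pax7*, the defining factor of these cells, stood at 1.91, 2.90, 2.49 and 3.57 CPM in Ctrl replicates 1 to 4 and at 3.09 and 2.58 CPM in LSD1skm-/- muscle, so that the groups overlapped. The part of satellite cells in the levels of the 3 members was not tested.

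Of the receptors, *Fgfr1* dominated in every library. *Fgfr1*, at chr8:25513654-25575718, encodes a receptor of FGF1 and FGF2 that myoblasts use. Its level was 6.76 to 8.83 RPKM, which was 77.6% to 86.8% of the summed level of the 4 receptors. In CPM it stood at 74.6, 66.8, 82.9 and 73.3 in the 4 Ctrl libraries, and at 87.2 and 78.2 in the LSD1skm-/- replicates. The groups overlapped, and the log2 difference of *Fgfr1* was 0.15 (SE 0.12, 95% interval -0.12 to 0.42, adjusted p = 0.678 in edgeR's quasi-likelihood test), with 0.15 also without the library labelled Ctrl replicate 4. This was the narrowest interval of the set. Leaving out LSD1skm-/- replicate 1 gave 0.07, and leaving out LSD1skm-/- replicate 2 gave 0.23.

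*Fgfr4*, at chr13:55152640-55168759, is the receptor known for its expression in satellite cells and regenerating muscle. It had 1.85, 2.28, 2.73 and 5.65 CPM in Ctrl replicates 1 to 4, and 5.01 and 3.32 CPM in the LSD1skm-/- replicates. The library labelled Ctrl replicate 4 was the highest of the 6, and the other 3 Ctrl libraries lay below both LSD1skm-/- libraries. *Fgfr4* made up 6.01% to 8.2% of the summed receptor level per length in Ctrl replicates 1 to 3, 16.7% in that library, and 13.2% and 10.1% in the LSD1skm-/- libraries.

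With the libraries as labelled the log2 difference of *Fgfr4* was 0.40 (SE 0.44, 95% interval -0.62 to 1.43, adjusted p = 0.772 in edgeR's quasi-likelihood test), the widest interval of the set. Without the library labelled Ctrl replicate 4 it was 0.86 (SE 0.25, 95% interval 0.27 to 1.46, adjusted p = 0.109), a fold of 1.82. Without LSD1skm-/- replicate 1 it was 0.07, so that 2 libraries set its size, in opposite directions.

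*Fgfr3*, at chr5:33721674-33737068, was the only receptor gene with both LSD1skm-/- libraries below all Ctrl libraries. It stood at 4.34, 3.11, 5.19 and 3.73 CPM in Ctrl replicates 1 to 4, and at 3.09 and 2.84 CPM in LSD1skm-/- muscle. Ctrl replicate 2 had 101 counts and the LSD1skm-/- replicates 98 and 107. Counting error alone is 8.67% of a value at the mean count of *Fgfr3*. Ctrl replicate 2 lay just above the LSD1skm-/- libraries, and the library labelled Ctrl replicate 4 lay within the range of the other controls. The log2 difference of *Fgfr3* was -0.46 (SE 0.24, 95% interval -1.02 to 0.09, adjusted p = 0.570 in edgeR's quasi-likelihood test), and -0.51 without the library labelled Ctrl replicate 4 (adjusted p = 0.303). Exons of *Fgfr3* overlap *G630022F23Rik* on the opposite strand over 13.94% of their length, so that its reads are uncertain to that extent.

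*Fgfr2*, at chr7:130162451-133123350 on the minus strand, was barely detected. It had 6, 3, 6 and 11 counts in Ctrl replicates 1 to 4, and 3 and 10 counts in the LSD1skm-/- libraries, a mean of 6.5 that left it untested. At this depth no difference was detectable for *Fgfr2*. Annotated exons of *Fgfr2* overlap those of *Ctbp2* on the same strand over 3.04% of their length. The origin of its few reads is therefore uncertain.

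Ordered by their median level per length, the 10 genes spanned from *Fgfr1* (7.74 RPKM) and *Fgf1* (7.61 RPKM) to *Fgfr2* (0.0168 RPKM). Between them came *Fgf6* (1.72 RPKM), *Fgf11* (1.41 RPKM), *Fgf2* (1.26 RPKM), *Fgfr4* (0.854 RPKM), *Fgf7* (0.560 RPKM), *Fgfr3* (0.478 RPKM) and *Fgf9* (0.215 RPKM). Neighbours in this order were separate over all 6 libraries in 3 places. *Fgf1* was 4.44 times the level of *Fgf6*, *Fgfr3* was 2.22 times that of *Fgf9*, and *Fgf9* was 12.8 times that of *Fgfr2*. All other neighbours had ranges that overlapped, such as *Fgfr1* and *Fgf1* with a ratio of 1.02.

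**Figure D3:**
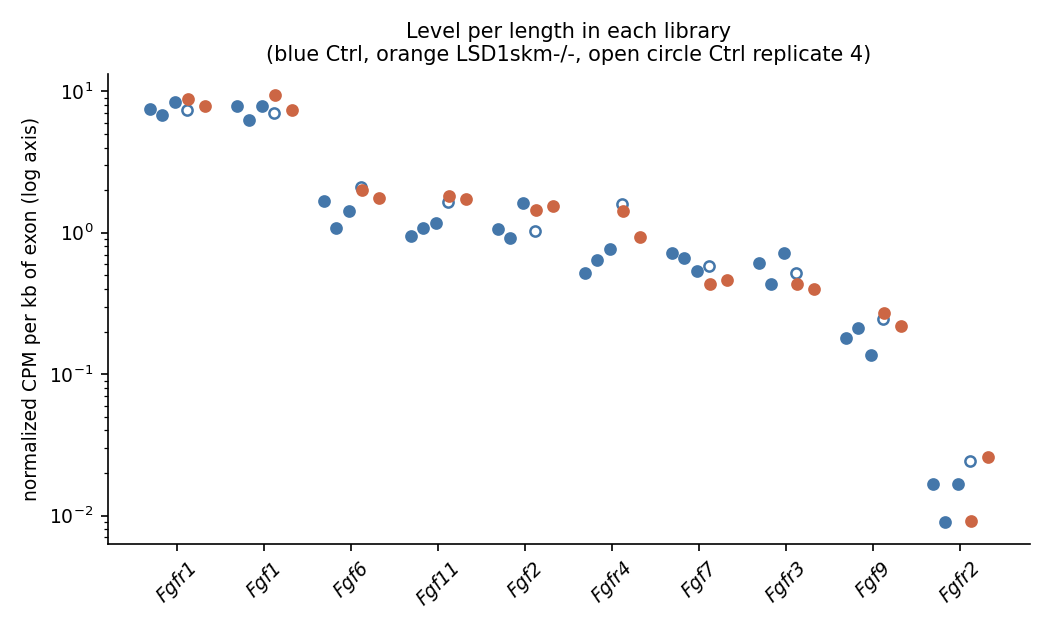
Normalized CPM per kilobase of exon for the 10 genes in the 6 libraries, on a log axis, in order of the median (blue Ctrl, orange LSD1skm-/-, open circle the library labelled Ctrl replicate 4). *Fgfr1* and *Fgf1* form the upper level at 6.22 to 9.44, and *Fgfr2* lies under 0.03 in every library.

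The genes whose pattern over the 6 libraries was most like that of *Fgf1* were *Mxd1*, *Tmpo* and *Rad18*, with a root mean square difference of 0.04, 0.05 and 0.05 in centred log2 CPM. For *Fgf11* they were *Psip1* (0.04), *2610002M06Rik* (0.06) and *Cemip2* (0.06). *Psip1* stood at 16.5, 18.1, 19.2 and 26.9 CPM in Ctrl replicates 1 to 4 and at 29.4 and 26.8 CPM in LSD1skm-/- muscle, with the library labelled Ctrl replicate 4 beside the LSD1skm-/- libraries as for *Fgf11*. These genes were ranked out of all genes tested, and 6 libraries of the same design carry little information on likeness.

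The rest of the FGF pathway was read from 8 lists of 108 genes, of which 105 had a row and 75 were tested. With the libraries as labelled 7 of the 75 genes met the study's limits, 2 higher and 5 lower (9.33%, beside 6.31% of all genes), and 0 passed the adjusted test in edgeR, with 8 at an unadjusted p under 0.05. The median log2 difference was -0.04, beside -0.01 over all genes. Without the library labelled Ctrl replicate 4 the counts were 12, with 6 higher and 6 lower (16.0%, beside 15.2%), and 4 passed the adjusted test (5.33%, beside 5.39%). These were *Sdc2* and *Hs6st2*, which rose, and *Fgfbp1* and *Rps6ka3*, which fell. Leaving out Ctrl replicate 1 or Ctrl replicate 3 gave 4 pathway genes in place of 7, beside 4.17% and 5.02% of all genes. Leaving out LSD1skm-/- replicate 1 gave 3, beside 7.01%, and leaving out LSD1skm-/- replicate 2 gave 2, beside 2.99%.

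Carriers, decoy and co-receptors held the largest difference of the pathway. *Fgfbp1*, whose product releases FGFs from heparan sulfate in the matrix, lies at chr5:43978858-43981779 on the minus strand. It stood at 5.64, 6.56, 9.33 and 1.21 CPM in Ctrl replicates 1 to 4, and at 0.662 and 1.25 CPM in the LSD1skm-/- replicates. The library labelled Ctrl replicate 4 lay between the LSD1skm-/- libraries, far below the other controls, as for *Kdm1a*. The log2 difference was -2.55 (SE 0.77, adjusted p = 0.557 in edgeR's quasi-likelihood test) with all libraries, for which DESeq2 gave an adjusted p of 0.0165. Without that library *Fgfbp1* fell by 2.89 on the log2 scale (SE 0.34, adjusted p = 0.00492 in edgeR's quasi-likelihood test).

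*Flrt2*, whose product is a membrane protein of a family that binds FGF receptors, was the other of the 6 tested carriers and co-receptors within the study's limits. These 2 were 33.3% of the 6 genes in both comparisons. Over all genes tested the share was 6.31% as labelled and 15.2% without the library labelled Ctrl replicate 4. *Flrt2* was at 3.93 to 6.33 CPM in Ctrl and at 6.46 and 7.26 CPM in LSD1skm-/- muscle, a log2 difference of 0.49 (SE 0.21, adjusted p = 0.557 in edgeR's quasi-likelihood test). *Fgfrl1*, the decoy receptor without a kinase domain, differed by 0.02 on the log2 scale (SE 0.12), and its level per length, 6.49 to 8.15 RPKM, was close to those of *Fgfr1* and *Fgf1*.

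Of 19 tested heparan sulfate proteoglycans and enzymes, 1 met the study's limits with the libraries as labelled (5.26%, beside 6.31% of all genes). Without the library labelled Ctrl replicate 4, 3 did (15.8%, beside 15.2%). Those that met the limits were higher in LSD1skm-/- muscle. Over all 19, 9 were higher and 10 lower with the libraries as labelled, and 11 higher and 8 lower without that library. *Sdc2*, the membrane proteoglycan syndecan-2, stood at 11.89, 10.57, 13.16 and 22.04 CPM in Ctrl replicates 1 to 4, and at 21.9 and 26.7 CPM in the LSD1skm-/- replicates. *Hs6st2*, a sulfotransferase that adds the 6-O-sulfate which FGF binding to heparan sulfate can require, stood at 2.84, 2.93, 3.86 and 14.4 CPM, against 14.7 and 13.3 CPM. For both genes the library labelled Ctrl replicate 4 lay within the range of the LSD1skm-/- libraries.

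With the libraries as labelled *Sdc2* differed by 0.75 on the log2 scale (adjusted p = 0.557 in edgeR's quasi-likelihood test) and *Hs6st2* by 1.2 (adjusted p = 0.574). Without that library *Sdc2* rose by 1.04 (SE 0.14, adjusted p = 0.00818 in edgeR's quasi-likelihood test) and *Hs6st2* rose by 2.12 (SE 0.17, adjusted p = 0.00133), a fold of 4.35. *Sulf2*, a sulfatase that removes 6-O-sulfate, was the third, with 0.41 and an adjusted p of 0.199.

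**Figure D4:**
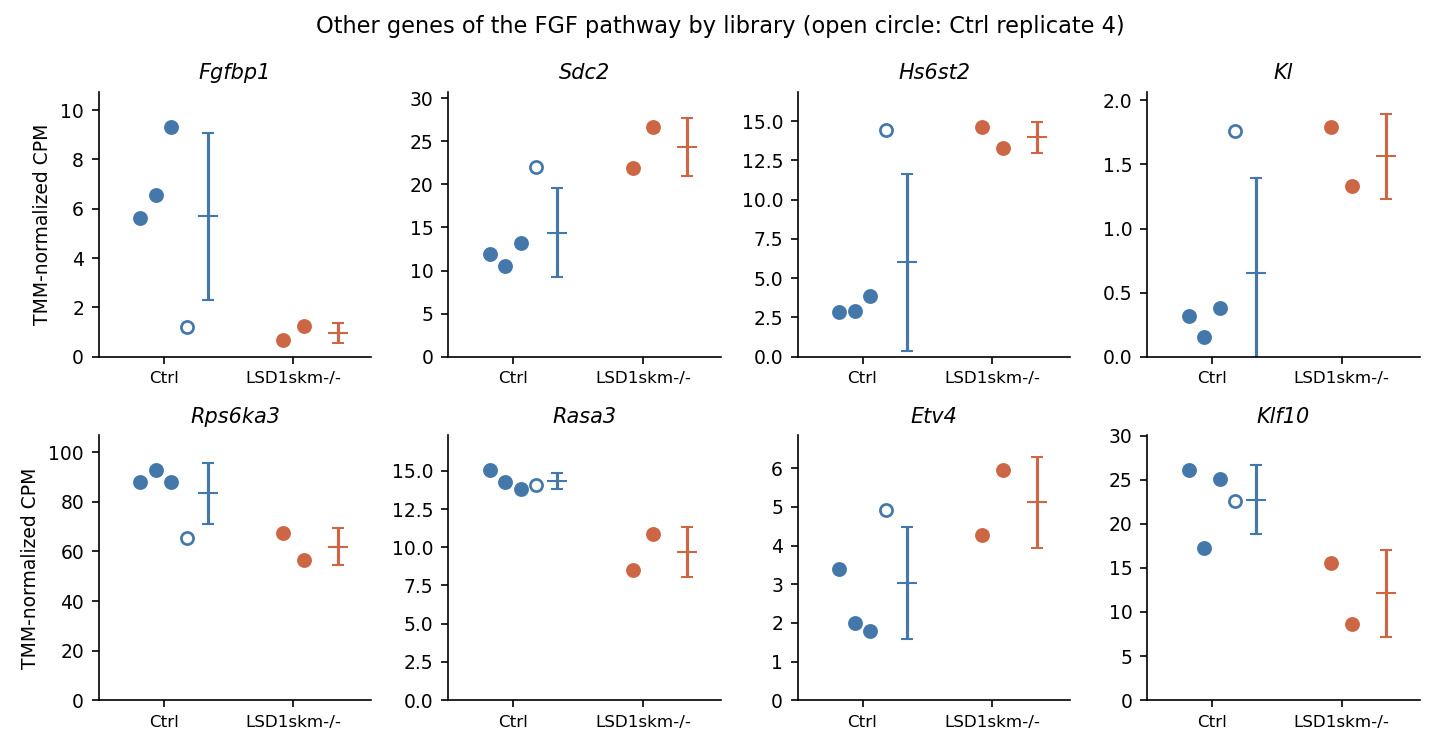
TMM-normalized CPM of 8 further genes of the FGF pathway in each library, with the mean and SD of each group (the SD bar of *Kl* stops at 0) and the library labelled Ctrl replicate 4 as an open circle. For *Fgfbp1*, *Sdc2*, *Hs6st2*, *Kl*, *Rps6ka3* and *Etv4* the open circle stands outside the other Ctrl libraries, on the side of the LSD1skm-/- libraries, and for *Rasa3* and *Klf10* it stands within them.

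Signal transducers below the receptors lay in a narrow range. Among 25 adaptors and kinases, all tested, 8 were higher and 17 lower in LSD1skm-/- muscle, and their log2 differences lay between -0.43 and 0.15. *Rps6ka3*, which encodes the kinase RSK2 downstream of Erk, stood at 87.8, 92.8, 87.9 and 65.3 CPM in Ctrl replicates 1 to 4 and at 67.3 and 56.6 CPM in LSD1skm-/- muscle. It differed by -0.43 on the log2 scale with the libraries as labelled, and fell by 0.53 (SE 0.11, adjusted p = 0.0407 in edgeR's quasi-likelihood test) without the library labelled Ctrl replicate 4. Without that library *Ptpn11*, the phosphatase SHP2, and *Cblb*, a ubiquitin ligase, also met the study's limits, with log2 differences of -0.40 and -0.44 and adjusted p values of 0.0572 and 0.186. Together with *Rps6ka3* these were 3 of the 25 genes (12.0%, beside 15.2% of all genes tested). As labelled, 1 of the 25 met the limits, *Rps6ka3* (4.0%, beside 6.31%). *Plcg1*, phospholipase C gamma 1, had an unadjusted p of 0.0365 with a log2 difference of -0.28, short of the fold limit.

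Of the 9 tested genes on the list of feedback inhibitors, *Rasa3*, a GTPase-activating protein of Ras and Rap, had the lowest unadjusted p in edgeR's quasi-likelihood test. It stood at 15.0, 14.3, 13.8 and 14.1 CPM in Ctrl replicates 1 to 4, and at 8.54 and 10.9 CPM in LSD1skm-/- muscle. Here the library labelled Ctrl replicate 4 lay with the other controls, and the groups did not overlap. The log2 difference was -0.56 with and without that library (unadjusted p = 0.00328 and 0.00415, adjusted p = 0.557 and 0.0638 in edgeR's quasi-likelihood test). *Spry2*, *Spry4* and *Spred1*, which encode Sprouty and Spred inhibitors induced by FGF signaling, differed by -0.07, -0.07 and 0.13 on the log2 scale, with SE of 0.16, 0.34 and 0.16. Without that library *Spry4* changed direction, with a difference of 0.22 (SE 0.22). *Dusp6*, the Erk phosphatase, differed by 0.34 (SE 0.22), and by 0.49 (SE 0.17, adjusted p = 0.174 in edgeR's quasi-likelihood test) without that library.

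Of the 12 tested transcription factors and early targets of the pathway, 6 were higher and 6 lower. *Klf10*, an early response factor, stood at 26.1, 17.3, 25.1 and 22.6 CPM in Ctrl replicates 1 to 4, and at 15.6 and 8.64 CPM in LSD1skm-/- muscle. Its log2 difference was -0.91 (SE 0.26, adjusted p = 0.557 in edgeR's quasi-likelihood test), with -1.40 when LSD1skm-/- replicate 1 was left out and -0.55 when LSD1skm-/- replicate 2 was. The 3 Ets factors of the PEA3 group, which FGF signaling induces, did not share a direction. *Etv1* differed by -0.62 (SE 0.26), *Etv5* by 0.15 (SE 0.20) and *Etv4* by 0.75 (SE 0.40), and without the library labelled Ctrl replicate 4 *Etv4* differed by 1.10 (SE 0.30, adjusted p = 0.0885 in edgeR's quasi-likelihood test).

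The FGF homologous factors other than *Fgf11*, and the sodium channel genes whose products they bind, had 4 tested genes, and none met the study's limits in either comparison. *Fgf13*, the homologous factor with the highest level, ranged from 24.8 to 30.3 CPM in Ctrl and stood at 25.7 and 25.1 CPM in LSD1skm-/- muscle, a log2 difference of -0.12 (SE 0.11). Per length *Fgf13* was at 6.17 to 7.53 RPKM, a range that overlaps that of *Fgf1*.

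None of the 9 other secreted FGF genes with a row reached the count limit. *Fgf10* and *Fgf18* had the highest mean counts of them, 21.7 and 21.0. *Fgf18* had 6, 17, 12 and 33 counts in Ctrl replicates 1 to 4 and 24 and 34 counts in LSD1skm-/- muscle, and *Fgf10* had 17, 14, 11 and 43 against 28 and 17. The endocrine FGF genes were near 0, with mean counts of 0.5 for *Fgf21* and 1.17 for *Fgf23*.

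*Kl*, which encodes the co-receptor alpha-Klotho and is given here although chosen after its values were seen, was also under the limit. It had 11, 5, 13 and 77 counts in Ctrl replicates 1 to 4, and 57 and 50 counts in LSD1skm-/- muscle. When genes with a mean count above 10 were fitted, the log2 difference of *Kl* was 1.22 (SE 0.78, adjusted p = 0.653 in edgeR's quasi-likelihood test), and 2.44 (SE 0.40, adjusted p = 0.0173) without the library labelled Ctrl replicate 4.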

How the data were processed

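RNA was extracted from muscle with Trizol, and stranded poly(A) libraries were sequenced. The authors mapped the reads to mm10, kept uniquely aligned reads and deposited whole-number counts per gene, which were not normalized, and bcl2fastq 2.20.0.422 is named in their processing notes. The strand setting of the counting is not stated, and the table gives symbols without coordinates. Of 8 labelled libraries, 6 have a column (4 Ctrl, 2 LSD1skm-/-), and LSD1skm-/- replicates 3 and 4 were not analysed here. Totals were 30654828 to 41278769 counts, and every pair of libraries differed beyond counting error (chi-square of 32.9 to 127 for each degree of freedom). The lowest value was that of the library labelled Ctrl replicate 4 with LSD1skm-/- replicate 1. With LSD1skm-/- replicate 2 the library labelled Ctrl replicate 4 was at 46.5, and with Ctrl replicates 1 to 3 at 67.8 to 95.4. Ctrl replicates 1 to 3 were at 33.2 to 40.8 among themselves, and at 48.7 to 127 with the LSD1skm-/- libraries.

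The 11364 of 27041 rows with a mean count above 50 were compared with edgeR 4.0.16 in R 4.3.3 (TMM scaling, quasi-likelihood test, group as the only term, Benjamini-Hochberg adjustment), in place of the study's DESeq2, which was an alternative (version 1.42.0). SEs were derived from the fold change and its F statistic, and 95% intervals from the test's degrees of freedom. P-values measure the spread between mice, as far as each library is 1 mouse. The members, the pathway and marker lists, and the fit without the library labelled Ctrl replicate 4 were chosen with earlier results of these data known. Named pathway genes were those with an unadjusted p under 0.05 in their list, or the highest and lowest where none had one (1 gene of this rule is not reported here), and *Fgfrl1*, *Spry2*, *Spry4*, *Spred1*, *Etv5*, *Fgf10*, *Fgf18*, *Fgf21*, *Fgf23*, *Kl*, *Myh7*, *Pax7*, *Itga7* and the genes that met the study's limits without that library were added after their values were seen.

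Exon lengths, coordinates and overlaps came from GENCODE vM21 on GRCm38. Promoter half-sites were set after longer forms of these motifs had been searched. On simulated counts with 200 of 11364 genes changed 2-fold, the test recovered 110 genes with 6 false calls for 4 against 2 libraries, and 90 with 1 false call for 3 against 2. Both simulations took the spread estimated from all 6 libraries and held no library that went against its label. They therefore do not give the recovery in these data, where 0 genes passed the adjusted test with 4 Ctrl libraries. Without the library labelled Ctrl replicate 4, 612 genes did. Alternatives were DESeq2, other scalings, other count limits, a replicate block and each library left out. The numbers shared by Ctrl and LSD1skm-/- replicates name no common litter or batch, so no pairing was used.

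The marker lists whose sums were not given with a result had these summed levels, and the differences of the adipocyte markers are given with *Kdm1a* above. Smooth muscle and pericyte markers were at 571.4 to 703.2 CPM in Ctrl and 527.1 to 641.1 CPM in LSD1skm-/- muscle, endothelial markers at 239.5 to 318.1 and 210.5 to 215.4 CPM, and adipocyte markers at 194.8 to 521.9 and 182.8 to 191.2 CPM. Schwann cell and nerve markers were at 48.1 to 168 and 59.0 to 97.7 CPM, immune cell markers at 31.7 to 85.4 and 48.9 to 79.3 CPM, and tendon markers at 44.8 to 72.9 and 69.6 to 70.5 CPM.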

Additional observations from a re-analysis of the deposited data

Results flagged for a closer look

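Among 27 named genes and 9 summed marker lists, 3 genes had a Ctrl library far from the other 3, by Dixon's ratio of the gap to the whole range on the log2 scale. These were *Kdm1a* (0.879), *Ptpn11* (0.875) and *Rps6ka3* (0.842), all above Dixon's 95% limit for 4 samples, and in all 3 the distant library was the one labelled Ctrl replicate 4, with the lowest level. Chance alone flags about 1 in 20 groups that were not chosen by their values. Some of the 27 genes were named because of an unadjusted p under 0.05 without the library labelled Ctrl replicate 4. *Kdm1a* was already known to stand out in it. That rate therefore does not apply to these genes. No member of the FGF set was flagged. For *Fgfr4* (0.656) and *Fgf11* (0.602) the farthest Ctrl library was also the one labelled Ctrl replicate 4, below the limit. For *Fgf6* (0.424) it was Ctrl replicate 2, and for *Fgf2* (0.725) Ctrl replicate 3.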

How the results depend on the processing

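No difference of a member changed its direction under any alternative. Over the 9 members with a fit, 126 of 130 alternative values stayed on the same side of an adjusted p of 0.05 and 4 newly passed it. For 18 other named genes, 238 of 274 stayed, 36 newly passed and 0 changed direction. Not every named gene was among these 18, and *Spry4*, which was not, went from -0.07 to 0.22 without Ctrl replicate 4. The 4 values were *Fgf11* by DESeq2 without Ctrl replicate 4 (0.71) and under the replicate block without it (0.80, adjusted p = 0.0484), and *Fgfr4* under the replicate block with it (0.99, adjusted p = 0.0479) and without it (0.99, adjusted p = 0.0316).

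By the study's limits, the count over all genes was 717. It became 1909 of 27041 rows without a count limit, 1668 with the replicate block, 340 to 1724 when 1 library was left out (474 without Ctrl replicate 1, 571 without Ctrl replicate 3, 797 without LSD1skm-/- replicate 1, 340 without LSD1skm-/- replicate 2, 1724 without Ctrl replicate 4), and 1664 (DESeq2), 1697 (replicate block) and 2164 (mean count above 10) without Ctrl replicate 4. By adjusted p the count was 0, with 1011 at an unadjusted p under 0.05. It became 46 with DESeq2, 149 without a count limit, 632 with the replicate block, 0 to 612 when 1 library was left out (6 without Ctrl replicate 3, 612 without Ctrl replicate 4), and 1056, 729 and 661 for the same 3 settings without Ctrl replicate 4. Members within the study's limits went from 0 to 1 without a count limit and 1 with a mean count above 10 (*Fgf11*), 4 with the replicate block, 0 to 2 when 1 library was left out, and 2, 4 and 2 for those settings. By adjusted p they went from 0 to 1 with the replicate block, and to 1 (DESeq2) and 2 (replicate block) without Ctrl replicate 4. Pathway genes within those limits went from 7 to 14 without a count limit, 2 to 12 when 1 library was left out, and 11 (DESeq2) and 14 (mean count above 10) without Ctrl replicate 4. *Fgf1* ranged from 0.01 to 0.38 when 1 library was left out, and *Fgf11* from 0.44 to 0.72. The cause was not tested. The fit with a mean count above 10 without Ctrl replicate 4 was chosen after seeing the data.

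The replicate block keeps only replicates 1 and 2 informative for the difference. Deviations of same-numbered libraries from their group means correlated at -0.23 and -0.03. With 2 LSD1skm-/- libraries the deviations of 1 mirror those of the other. These correlations therefore cannot show whether same-numbered libraries shared a litter or batch. The number of LSD1skm-/- libraries limits every interval, and counting error is 12.3% of a value for *Fgf7* and 39.2% for *Fgfr2* at their mean counts.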
